A study of Mus musculus with 6 samples.

Results

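Tetraspanins are a family of membrane proteins that cross the membrane several times, and 30 of their genes were measured on 6 single-colour mouse arrays. Members were all probe sets whose annotated symbol is Tspan with a number, or Cd9, Cd37, Cd53, Cd63, Cd81, Cd82, Cd151, Upk1a, Upk1b, Rom1 or Prph2. This gave 30 probe sets for 30 genes out of 22206 transcript probe sets, with 1 probe set for each gene. Tspan7 was not analysed here. The arrays fall into 2 groups of 3. The controls, titled PBS, are labelled as control C57BL/6J mice, with no agent named beyond that title. The other group is of C57BL/6J mice gavaged with MBELN, exosome-like nanoparticles from mulberry bark, for 7 days. The labels give colon crypt as the source of the RNA in all 6, crypts being the epithelial glands of the bowel wall, and give no age and no statement that each array is a separate mouse. P-values therefore rest on sample-to-sample spread that may be technical. Arrays of the same group also differ in tissue markers, given below, so this spread is not only that of like samples. With 3 arrays a group precision is limited.

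Tetraspanins bind each other, integrins and proteins of the immunoglobulin superfamily in patches of membrane known as tetraspanin-enriched microdomains. They steer the transport, clustering and shedding of their partners, and Cd9, Cd63 and Cd81 are widely used as markers of exosomes. In the gut, Tspan1 and Tspan8 are known as genes of the epithelium, whereas Cd37 and Cd53 are known from leukocytes and Prph2 and Rom1 from the discs of photoreceptors.

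Promoter windows, 250 bases before to 50 after an annotated start, were taken from RefSeq (GRCm38.p6) and matched 28 of the 30 genes, all except Tspan18 and Upk1b. Shown are 3 members that fell in the comparison below and Cd81, which rose, as examples that differ in CpG dinucleotides, which are in capitals. Each is 5′ to 3′ on the strand of its gene.
Tspan8, chr10:115817034-115817333, plus strand: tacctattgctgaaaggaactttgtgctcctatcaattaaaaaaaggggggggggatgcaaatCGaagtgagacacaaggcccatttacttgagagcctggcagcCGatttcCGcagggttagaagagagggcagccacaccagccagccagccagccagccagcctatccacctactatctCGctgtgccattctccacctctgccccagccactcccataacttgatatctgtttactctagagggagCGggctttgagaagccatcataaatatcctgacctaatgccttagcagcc
Tspan1, chr4:116167549-116167848, minus strand: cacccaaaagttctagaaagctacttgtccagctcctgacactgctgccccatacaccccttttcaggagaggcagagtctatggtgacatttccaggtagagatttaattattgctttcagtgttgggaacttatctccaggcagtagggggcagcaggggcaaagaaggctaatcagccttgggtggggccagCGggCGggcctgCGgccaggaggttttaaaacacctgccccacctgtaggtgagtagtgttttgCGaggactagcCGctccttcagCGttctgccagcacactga
Tspan15, chr10:62231169-62231468, minus strand: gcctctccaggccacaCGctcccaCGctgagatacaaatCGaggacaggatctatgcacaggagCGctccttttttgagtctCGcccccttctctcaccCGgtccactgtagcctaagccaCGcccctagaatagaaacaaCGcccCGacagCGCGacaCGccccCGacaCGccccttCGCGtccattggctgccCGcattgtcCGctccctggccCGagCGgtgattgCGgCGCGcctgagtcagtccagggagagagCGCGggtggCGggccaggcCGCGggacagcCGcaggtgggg
Cd81, chr7:143052500-143052799, plus strand: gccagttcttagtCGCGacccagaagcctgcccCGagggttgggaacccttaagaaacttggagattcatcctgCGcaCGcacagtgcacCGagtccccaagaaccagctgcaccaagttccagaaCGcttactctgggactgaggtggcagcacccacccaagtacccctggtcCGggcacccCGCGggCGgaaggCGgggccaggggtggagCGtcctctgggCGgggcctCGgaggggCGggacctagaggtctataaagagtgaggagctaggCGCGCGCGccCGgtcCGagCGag
The Tspan8 and Tspan1 windows hold 5 and 6 CpG, the Tspan15 and Cd81 windows 29 and 23, and the median over 32851 such windows is 7. Cd82, the other gene that fell, has 4 windows in the table, with 4, 11, 15 and 16 CpG. Both strands were searched for motifs. The letters CATAAA, which caudal-type homeobox proteins can bind, occur in the Tspan8 window at bases 269 to 274, counted from the window's first base. They lie on the printed strand, past the annotated start, and occur in 11.9% of all windows. The GATA letters AGATAA occur in the Tspan1 window at bases 133 to 138, on the strand opposite to the one printed, and in 11.2% of all windows. GC boxes, GGGCGG, occur 1 time in the Tspan1 window and 3 times in that of Cd81, at bases 188, 223 and 239 by their first base, and in 35.7% of all windows. A TATA box, TATAAA, occurs in the Cd81 window at bases 257 to 262, past the annotated start, and in 13.6% of all windows. The letters CAAAGTCCA of HNF4 occur in 0 of the 28 matched genes and in 0.475% of all windows, and the HNF1 motif in 0 and in 0.00913%. No overlap between different motifs was found in these 4 windows, and a match describes the letters only.

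The deposited values were read as log2 and are given as such throughout. Array medians lay between 4.38 and 4.55. A level for dim probe sets, 3.99 to 4.44 by array, is the value that 95% of 1412 probe sets for odorant and pheromone receptors, genes of sensory neurons, do not exceed, and is called the receptor level here. The labelled tissue was checked against marker lists chosen with earlier results of these data known. The median of 15 gut epithelial markers was 17.89 to 18.64 in PBS, against 3.32 to 6.90 in MBELN. For 7 colon epithelial markers the median was 16.73 in PBS 2, 7.43 in PBS 1, 6.99 in PBS 3 and no more than 3.82 in any MBELN array, while 8 Paneth cell markers, of small intestinal crypts, had 19.06, 3.79 and 19.61 in PBS 1, 2 and 3. For 10 small intestinal epithelial markers the median was 18.02, 6.42 and 18.02 in PBS 1, 2 and 3, against 9.77, 3.65 and 8.55 in MBELN 1, 2 and 3. All 10 were above the receptor level in MBELN 1 and 3, 9 in PBS 1 and 3, 6 in PBS 2 and 4 in MBELN 2. Heart muscle markers had a median of 18.06 and 18.39 in MBELN 1 and 3 and of 3.66 to 4.0 in the other 4 arrays. Neuronal markers had 15.53 in MBELN 2 and 3.24 to 4.36 elsewhere. The arrays labelled MBELN thus go against the labelled colon crypt, and PBS 1 and 3 carry small intestinal markers, so the 2 groups differ in tissue markers as well as in the treatment their labels give, and these cannot be told apart. In RNA of a whole sample, fewer cells of a type and less RNA per cell cannot be told apart either. The means of 4 bacterial and phage hybridisation controls formed 2 levels. They were 9.79 to 10.09 in PBS 2, MBELN 1 and MBELN 3 and 8.43 to 8.98 in the others. These levels split the arrays as the tissue markers do. The higher one holds the PBS array with colon markers and the MBELN arrays with heart markers. The lower one holds the PBS arrays with small intestinal markers and the MBELN array with neuronal markers. Blocking on the level, or fitting within it, therefore cannot tell a technical part from a tissue part. Values within each level are given below for members with arrays over 4 log2 units apart. Within the higher level PBS 2 stands alone against MBELN 1 and 3, and within the lower level MBELN 2 stands alone against PBS 1 and 3, the lone array being assumed to vary like the others.

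**Figure D1:**
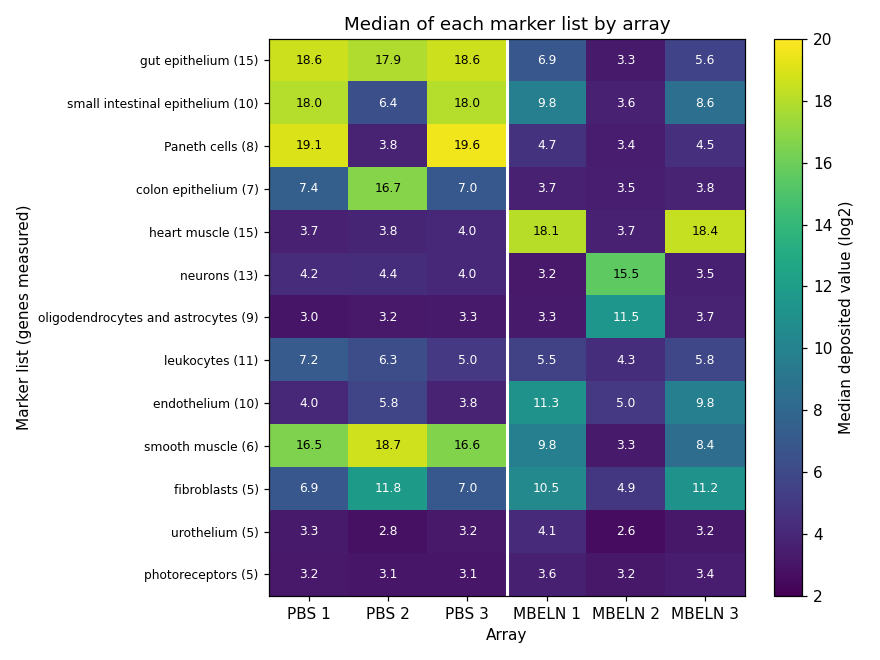
Median deposited value (log2, colour and number) of each marker list in each array, with the number of genes measured in brackets. Gut epithelial markers are high in the 3 PBS arrays (17.89 to 18.64), heart muscle markers in MBELN 1 and 3, and neuronal markers in MBELN 2.

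Across the family, 4 genes fell and 1 rose in MBELN, and 25 did not pass the test. Tspan8, Tspan1, Tspan15 and Cd82 fell, and Cd81 rose. The test was limma's with Benjamini-Hochberg adjustment over all 22206 probe sets at a threshold of 0.05, which 5.18% of probe sets passed (3.76% lower and 1.42% higher), against 16.7% of the members (5 of 30). Among the 12082 probe sets above the receptor level in at least 3 arrays, 9.50% passed, 6.91% lower, and 34.5% had groups that did not overlap. Before adjustment, 7 of 30 members had a p under 0.05, the other two being Tspan17 and Tspan9. The median difference, MBELN minus PBS, was 0.00 log2 units over the members, or -0.01 with a bound in place of the value wherever 1 group was dim throughout, and 0.09 over all probe sets. The groups did not overlap in 8 of 30 members (26.7%), against 25.3% of all probe sets, so this share lies near the background. MBELN lay above PBS in 4 of these, Cd81, Prph2, Tspan17 and Tspan18, and below it in the 4 that fell. Prph2 and Tspan18 were below the receptor level in all 6 arrays, where values have no order, so their place in this count carries no direction.

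**Figure D2:**
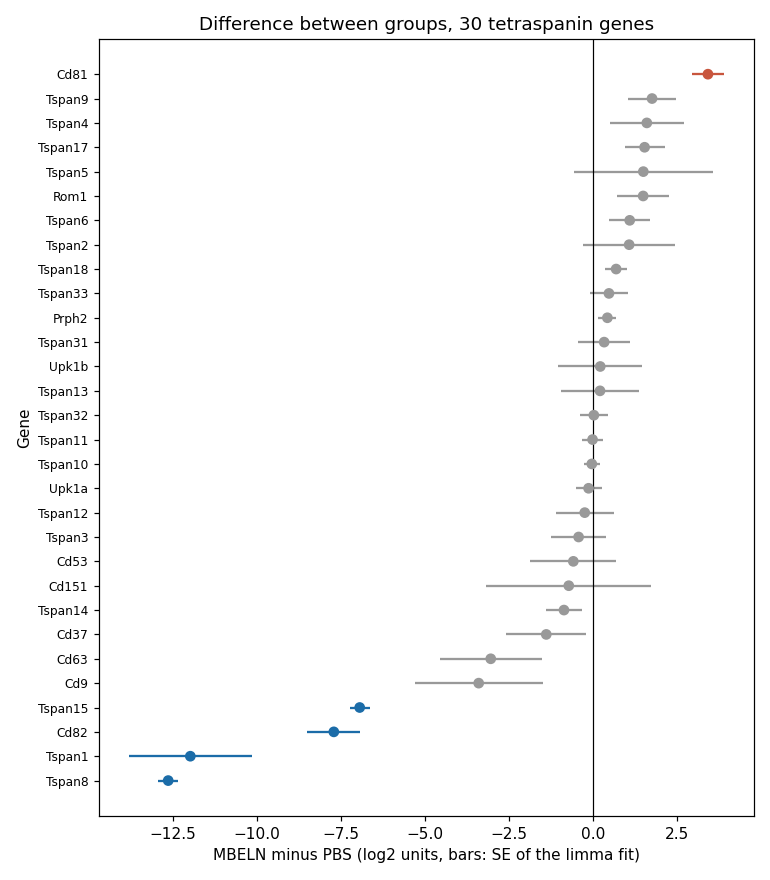
Difference between groups, MBELN minus PBS in log2 units, for each of the 30 genes, with the standard error of the limma fit as bars. Blue marks the 4 genes that fell, red the 1 that rose and grey the 25 that did not pass. Tspan8 and Tspan1 lie furthest to the left, at -12.63 and -11.97.

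In 13 of 30 members (43.3%) the highest and the lowest array were over 4 log2 units apart, against 23.7% of all probe sets and 34.9% of those above the receptor level in at least 3 arrays. 5 of these 13 are the genes past the threshold and 8 are not. In 18 members every array lay above the receptor level, in 6 none did, and in the other 6 between 1 and 5 arrays did. The 6 at or below the receptor level in all arrays were Prph2, Tspan10, Tspan11, Tspan18, Tspan32 and Upk1a. Over the 30 members, the median gap from PBS 1 to PBS 3 was 0.38, and from MBELN 1 to MBELN 3 it was 0.58. The gap was 0.61 and 0.92 from PBS 2 to PBS 1 and 3, and 1.79 and 1.49 from MBELN 2 to MBELN 1 and 3. Between a PBS and an MBELN array it was 1.24 to 1.72, a size that within a group was reached only by the pairs with MBELN 2. MBELN 2 was the lowest array for 8 of the 24 members above the receptor level in some array and the highest for 5.

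**Figure D3:**
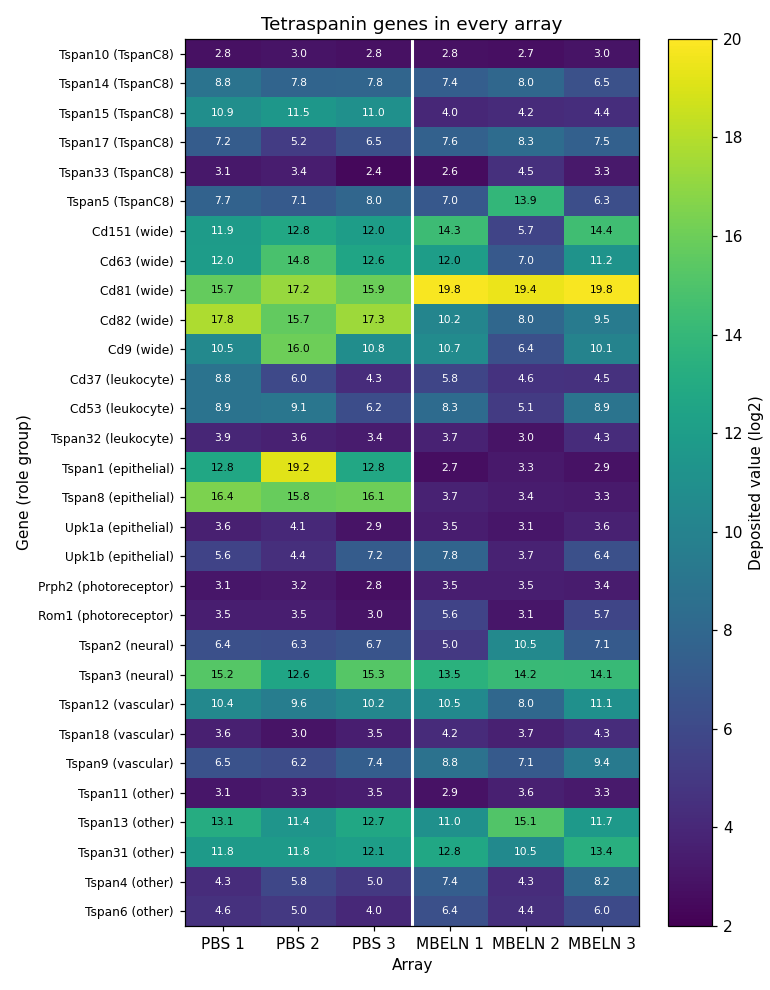
Deposited value (log2, colour and number) of each tetraspanin gene in each array, grouped by the role given in brackets. Tspan8 and Tspan1 are high in the 3 PBS arrays only, Tspan5 is high in MBELN 2 (13.9), and Cd151 is low there (5.7).

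Among the epithelial members, Tspan8 and Tspan1 fell below the receptor level in every MBELN array. Tspan8, a tetraspanin of gut epithelium also known from tumours of the digestive tract, read 16.43, 15.83 and 16.05 in PBS 1, 2 and 3, against 3.70, 3.40 and 3.32 in MBELN 1, 2 and 3. The groups were far apart and each was tight, at 16.10 ± 0.30 in PBS and 3.47 ± 0.20 in MBELN (SD, n = 3). Tspan8 was lower by at least 3551-fold in MBELN (limma, adjusted p = 0.00027), taken from the PBS mean to the mean receptor level of the MBELN arrays. Leaving out any 1 array kept this call, with differences of -12.77 to -12.47, and within the higher and the lower hybridisation control level the difference was -12.32 and -12.84, and -12.58 with the level as a block. Tspan8 was thus alike in PBS 2 and in PBS 1 and 3, which differ in colon and Paneth cell markers.

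Tspan1, a tetraspanin of secretory and absorptive epithelia, read 12.75, 19.22 and 12.78 in PBS 1, 2 and 3, against 2.68, 3.26 and 2.90 in MBELN 1, 2 and 3. Within PBS, array 2 stood 6.45 above the mean of arrays 1 and 3, and the 3 MBELN arrays lay below all of them. The MBELN level was lower by at least 1559-fold (limma, adjusted p = 0.0236), a limit that was 351-fold without PBS 2, 3299-fold without PBS 1 and 3269-fold without PBS 3. It did not pass once PBS 1 (adjusted p = 0.0698), PBS 3 (0.0696), MBELN 1 (0.0994) or MBELN 3 (0.0988) was left out. The difference was -11.97 ± 1.83 (log2, SE, n = 3), -12.97 after blocking on hybridisation control level, then -16.43 and -9.51 within the higher and the lower level. PBS 2, where Tspan1 was high, is the array in which colon epithelial markers had a median of 16.73, against 7.43 and 6.99 in PBS 1 and 3. Gut epithelial markers were above the receptor level for 14 or 15 of 15 genes in the PBS arrays and for 10, 2 and 11 of 15 in MBELN 1, 2 and 3. Their summed level was 22.27 to 22.76 in PBS, against 7.52 to 11.25 in MBELN (log2), and its part in the falls of Tspan8 and Tspan1 was not tested.

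The remaining epithelial members are uroplakins, which form plaques on the surface of bladder epithelium. Upk1a lay below the receptor level in all 6 arrays, between 2.93 and 4.10. Upk1b read 5.61, 4.43 and 7.24 in PBS 1, 2 and 3, against 7.80, 3.71 and 6.40 in MBELN 1, 2 and 3, so the groups overlapped (difference 0.21 ± 1.24, SE; limma, adjusted p = 0.952). Within the higher and the lower hybridisation control level the difference of Upk1b was 2.67 and -2.71. The plaque partners of these uroplakins, Upk2 and Upk3a, lay below the receptor level in every array. Upk3b, which is also made by the mesothelium that covers heart and gut, was above it in every array, with 7.55, 5.67 and 8.84 in PBS, against 12.06, 4.32 and 10.54 in MBELN. Upk1b and Upk3b were both at their highest in MBELN 1 and at their lowest in MBELN 2.

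The members of TspanC8 type are named for cysteines in their large outer loop and escort the protease Adam10 to the cell surface. Of 6 members, 1 fell, 0 rose and 5 did not pass. The share that passed was 5.18% over all probe sets and 9.50% over those above the receptor level in at least 3 arrays. Tspan15, the one that fell, read 10.92 and 11.51 in PBS 1 and 2, 0.08 above PBS 1 in PBS 3, and 4.03, 4.20 and 4.39 in MBELN 1, 2 and 3. Every PBS array was high and every MBELN array lay at or near its receptor level, with 1 of 3 above it. The difference was -6.94 ± 0.29 (log2, SE, n = 3; limma, adjusted p = 0.000742), with no fold given because MBELN 1 and 3 lay below the receptor level. It lay between -7.05 and -6.75 with any 1 array left out, was -7.03 after blocking on hybridisation control level and -7.31 and -6.76 within the higher and the lower level. Adam10 itself read 11.29, 11.72 and 11.82 in PBS, against 9.64, 9.27 and 9.61 in MBELN and fell by 2.10 (adjusted p = 0.0171), but missed the threshold (adjusted p = 0.0634, 0.0928, 0.0695 and 0.0748) on leaving out PBS 1, PBS 3, MBELN 1 and MBELN 3 in turn, and with a trended robust variance model (0.116). The gut epithelial summed level given above was lower in MBELN than in PBS, as both genes were. Within the groups Tspan15 did not follow it, and the part of that level was not tested.

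Tspan5, which carries Adam10 toward Notch, had the opposite layout, with a single high array. It read 7.67, 7.07 and 7.96 in PBS 1, 2 and 3, against 6.99 in MBELN 1, 6.29 in MBELN 3 and 13.89 in MBELN 2, the array with neuronal markers. MBELN 2 stood 7.25 above the mean of MBELN 1 and 3, and the groups overlapped (difference 1.49 ± 2.07, SE; limma, adjusted p = 0.752). Without MBELN 2 the difference was -0.93 (adjusted p = 0.207). Within the higher and the lower hybridisation control level it was -0.43 and 6.08. Tspan17 read 5.19 to 7.23 in PBS, against 7.57, 8.34 and 7.55 in MBELN, without overlap but short of the threshold (difference 1.53 ± 0.59, SE; limma, adjusted p = 0.264). Tspan14 lay between 6.49 and 8.84 over the 6 arrays (adjusted p = 0.468). Tspan33 was above the receptor level in MBELN 2 alone, at 4.47, and Tspan10, a member of pigmented eye cells, in no array, at 2.73 to 2.98.

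The widely expressed members that bind integrins and travel in vesicles went different ways. Of 5, Cd82 fell, Cd81 rose and Cd9, Cd63 and Cd151 did not pass. The share that passed was 5.18% over all probe sets and 9.50% over those above the receptor level in at least 3 arrays. Cd82, known as a suppressor of metastasis, read 17.75, 15.71 and 17.33 in PBS 1, 2 and 3, against 10.20, 8.01 and 9.47 in MBELN 1, 2 and 3. In each group array 2 was the lowest, and the groups did not overlap. The difference was -7.71 ± 0.79 (log2, SE, n = 3; limma, adjusted p = 0.00683), or 209-fold lower, with every array above the receptor level. Leaving out any 1 array gave -8.32 to -7.10 and kept the call. It was -7.71 after blocking on hybridisation control level, then -5.88 and -9.54 within the higher and the lower level. The gut epithelial summed level moved with it and its part was not tested.

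Cd81, a common exosome marker, read 15.72, 17.21 and 15.93 in PBS 1, 2 and 3, against 19.81, 19.44 and 19.84 in MBELN 1, 2 and 3. All MBELN values were higher than all PBS values, in the arrays with heart markers and in the array with neuronal markers alike. The difference was 3.41 ± 0.47 (log2, SE, n = 3; limma, adjusted p = 0.0173), a 10.6-fold rise. The MBELN values lie near the top of the scale, 0.09 below the table's highest value in MBELN 3, so the rise may be understated. Cd81 did not pass once PBS 1 (adjusted p = 0.0844), PBS 3 (0.0915), MBELN 1 (0.0821) or MBELN 3 (0.0841) was left out, or with a trended robust variance model (0.0888), while the difference lay between 3.13 and 3.87 with any 1 array left out. It was 3.11 after blocking on hybridisation control level and 2.61 and 3.61 within the higher and the lower level.

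**Figure D4:**
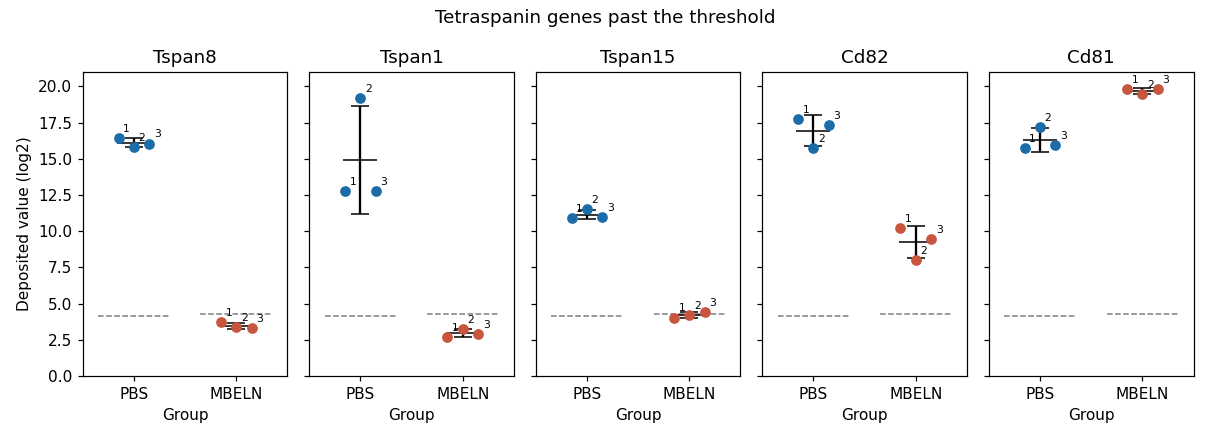
Deposited value (log2) of the 5 genes past the threshold in each array, numbered by replicate, with the mean and SD of each group as bars (n = 3) and the mean receptor level as a dashed line. The MBELN values of Tspan8 and Tspan1 lie below the dashed line, those of Cd82 well above it, and those of Cd81 above all PBS values.

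Cd9, which organises membrane at contact and fusion sites, read 10.50, 16.02 and 10.83 in PBS 1, 2 and 3, against 10.70, 6.37 and 10.08 in MBELN 1, 2 and 3. PBS 2 was 5.36 above the mean of PBS 1 and 3 and MBELN 2 was 4.02 below that of MBELN 1 and 3, and the other 4 arrays lay within 10.08 to 10.83. The difference of -3.40 ± 1.90 (SE) did not pass (limma, adjusted p = 0.432). After blocking on hybridisation control level it was -4.96 (adjusted p = 0.00792), and it was -5.63 and -4.30 within the higher and the lower level. With PBS 2 and MBELN 2 both left out it was -0.28 (adjusted p = 0.648). Colon epithelial markers had a median of 16.73 in PBS 2, and gut epithelial markers had their lowest, 3.32, in MBELN 2, and the part of either was not tested.

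Cd63, a tetraspanin of late endosomes and lysosomes, had a similar layout. It read 11.97, 14.84 and 12.58 in PBS 1, 2 and 3, against 7.02 in MBELN 2, 11.24 in MBELN 3 and 0.76 more than that in MBELN 1, high in PBS 2 and low in MBELN 2 as Cd9 was. Its difference was -3.04 ± 1.52 (SE; limma, adjusted p = 0.375), -4.24 after blocking on hybridisation control level (adjusted p = 0.0253), and -3.22 and -5.26 within the higher and the lower level. With PBS 2 and MBELN 2 left out it was -0.65 (adjusted p = 0.307). Cd151, which holds laminin-binding integrins, read 11.88, 12.80 and 12.02 in PBS, against 14.35, 5.72 and 14.45 in MBELN 1, 2 and 3. MBELN 1 and 3 lay above every PBS array and MBELN 2 far below, 8.68 under their mean. Its difference of -0.73 ± 2.46 (SE; adjusted p = 0.908) therefore turned to 2.17 without MBELN 2 (adjusted p = 0.016), and was 1.60 within the higher and -6.23 within the lower level.

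**Figure D5:**
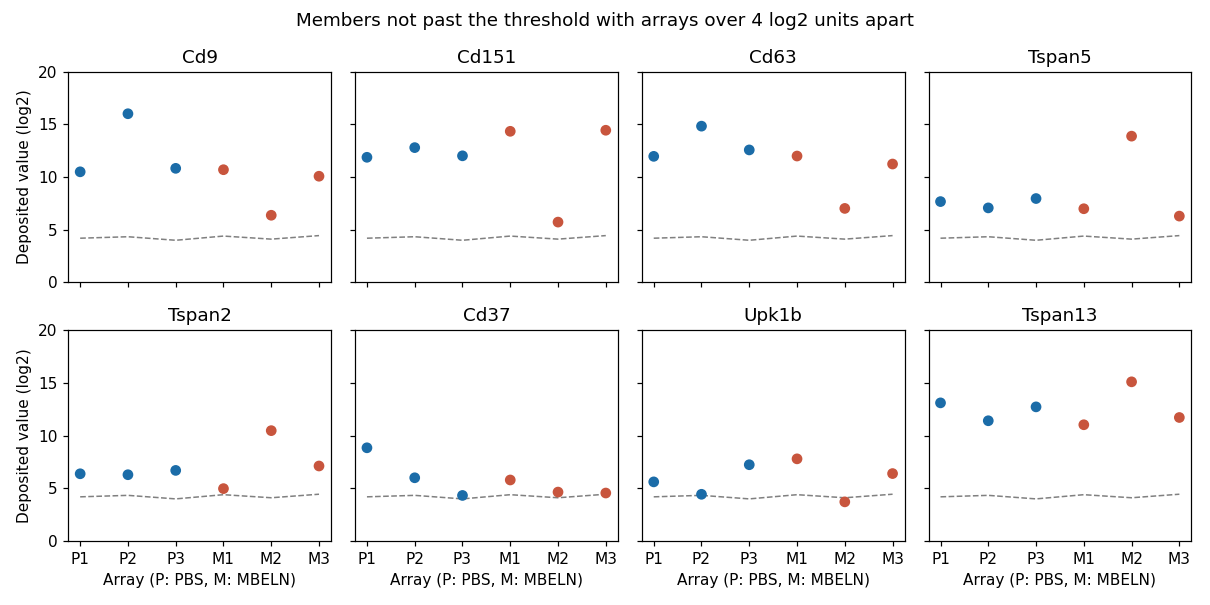
Deposited value (log2) in each array of the 8 genes that did not pass the threshold and whose highest and lowest arrays are over 4 log2 units apart, PBS in blue and MBELN in red, with the receptor level of each array as a dashed line. PBS 2 is the highest array for Cd9 and Cd63, and MBELN 2 is the highest for Tspan5, Tspan2 and Tspan13 and the lowest for Cd9, Cd151, Cd63 and Upk1b.

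Of the 3 leukocyte members, 0 passed with limma, and none had an unadjusted p under 0.05. Cd37, of B cells and other lymphocytes, read 8.85, 6.00 and 4.32 in PBS 1, 2 and 3, against 5.79, 4.64 and 4.55 in MBELN 1, 2 and 3. PBS 1 stood alone. The B cell markers Cd79a and Ms4a1 read 8.75 and 7.32 there, against 6.26 and 4.07 in PBS 2 and 3.70 and 3.47 in PBS 3. In the same leukocyte list Cd3e, Cd4, Cd8a, Ptprc and Coro1a were also highest in PBS 1, and Csf1r, Adgre1, Lyz2 and Cd14 were not. The difference of Cd37, -1.39 ± 1.18 (SE), had an adjusted p of 0.601 by limma. Within the higher and the lower hybridisation control level it was -0.83 and -1.94. Cd53, found on most leukocytes, read 8.86, 9.06 and 6.23 in PBS, against 8.32, 5.11 and 8.94 in MBELN, with PBS 3 and MBELN 2 low. Tspan32 lay below the receptor level in every array, at 2.96 to 4.27. The 11 leukocyte markers had a summed level of 15.82 to 17.15 in PBS, 17.60 and 16.65 in MBELN 1 and 3 and 9.58 in MBELN 2. Outside MBELN 2 this sum lay close to Lyz2 alone, at 15.57, 16.76 and 17.14 in PBS and 17.57 and 16.61 in MBELN. Ptprc instead read 12.96, 10.34 and 7.76 in PBS 1, 2 and 3, against 8.16, 5.83 and 7.62 in MBELN. The median of the list was 7.15, 6.26 and 4.96 in PBS, against 5.47, 4.33 and 5.84 in MBELN. The part of these markers in the values of the leukocyte members was not tested.

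The neural and glial members were above the receptor level in every array. Tspan2, of myelinating glia and their precursors, read 6.38, 6.29 and 6.70 in PBS 1, 2 and 3, against 4.97 in MBELN 1, 10.48 in MBELN 2 and 7.12 in MBELN 3. PBS was tight and MBELN 2 stood alone, 4.44 above the mean of the other two MBELN arrays. The difference of 1.07 ± 1.37 (SE; limma, adjusted p = 0.731) was -0.41 without MBELN 2. Within the higher and the lower hybridisation control level it was -0.24 and 3.94. An antisense gene, Tspan2os, overlaps Tspan2, and the strand its probes read is not given in the sources used here. Markers of oligodendrocytes and astrocytes had a summed level of 20.41 in MBELN 2 and of 7.05 to 8.11 elsewhere, and their part was not tested. Tspan3, which binds a claudin of myelin, lay between 12.59 and 15.27 over the 6 arrays, with PBS 2 at 12.59 as its lowest (adjusted p = 0.82). Tspan13, a member without a settled role here, shared the high value in MBELN 2, with 15.12 there, 11.04 and 11.73 in MBELN 1 and 3, and 13.12, 11.42 and 12.74 in PBS. Its difference was 0.20 ± 1.17 (SE; adjusted p = 0.95), and -1.04 without MBELN 2. Within the higher and the lower hybridisation control level it was -0.036 and 2.19.

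Among members tied to vessels, platelets and signalling, none of 3 passed with limma, and 1, Tspan9, had an unadjusted p under 0.05. Tspan9, of platelets and their precursors, read 6.53, 6.17 and 7.40 in PBS, against 8.82, 7.10 and 9.42 in MBELN 1, 2 and 3. Only MBELN 2 overlapped with PBS (difference 1.75 ± 0.70, SE; limma, adjusted p = 0.278). Tspan12, which helps the Norrin receptor Fzd4 signal in retinal vessels, read 9.64 to 10.43 in PBS, against 10.51, 7.98 and 11.06 in MBELN, with MBELN 2 lowest. Fzd4 read 3.60, 6.30 and 3.28 in PBS, against 8.81, 4.45 and 8.70 in MBELN, while Norrin itself, Ndp, lay below the receptor level throughout. Tspan18, an endothelial regulator of calcium entry, was below that level in every array, at 2.98 to 4.31. Endothelial markers had a summed level of 7.55 to 9.53 in PBS, 15.36 and 14.73 in MBELN 1 and 3 and 8.71 in MBELN 2, and their part in these values was not tested.

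The other members were Tspan4, Tspan6, Tspan11 and Tspan31, and none passed with limma or had an unadjusted p under 0.05. Tspan4, known from the membrane tubes that migrating cells leave behind, read 4.27, 5.83 and 5.02 in PBS, against 7.40, 4.28 and 8.23 in MBELN 1, 2 and 3. Tspan6 read 4.58, 4.99 and 4.04 in PBS, against 6.38, 4.43 and 6.05 in MBELN. In both genes MBELN 1 and 3 lay above every PBS array and MBELN 2 did not. Tspan31 read 11.79 to 12.07 in PBS, against 12.75, 10.53 and 13.39 in MBELN, again with MBELN 2 lowest, and Tspan11 was below the receptor level, at 2.85 to 3.61. Rom1, the photoreceptor member that pairs with Prph2, was above the receptor level in MBELN 1 and 3 alone, with 3.50, 3.50 and 2.97 in PBS, against 5.62, 3.08 and 5.73 in MBELN. Prph2 was below the receptor level at 2.75 to 3.51, as were the photoreceptor markers Gnat1, Rcvrn, Pde6b and Cnga1 in every array. Sag, the other photoreceptor marker measured, was above it in every array, with 4.38, 4.33 and 4.75 in PBS, against 5.40, 5.05 and 4.92 in MBELN.

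Without MBELN 2, the members higher in MBELN by limma were Cd81, Cd151, Rom1, Tspan4, Tspan6 and Tspan9, 6 of 30, where 16.8% of all probe sets were called, 9.51% higher and 7.32% lower. The differences were then 2.17 for Cd151, 2.77 for Tspan4, 1.68 for Tspan6 and 2.42 for Tspan9, with adjusted p of 0.016, 0.025, 0.0369 and 0.0223. Rom1 had an adjusted p of 0.00618, with no size given because its PBS values all lay below the receptor level. The 4 lower members were those of the full comparison. Heart muscle markers had a median of 18.06 and 18.39 in the MBELN arrays that remained.

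Some tetraspanin genes lie side by side in the RefSeq gene table (GRCm38.p6). Cd82 lies next to Tspan18 on chromosome 2, and Cd82 fell whereas Tspan18 was below the receptor level in every array. Cd81 lies next to Tspan32 on chromosome 7, and Tspan11 next to Tspan9 on chromosome 6, and in each pair 1 gene was below that level throughout. Cd151 and Tspan4, with Polr2l between them on chromosome 7, both had their 2 highest arrays in MBELN 3 and MBELN 1. So did Cd81, Rom1, Tspan6, Tspan9, Tspan12 and Tspan31, none of which lies next to either gene. This layout is thus not particular to the pair. Their MBELN 2 values were 5.72 and 4.28, the lowest array for Cd151, while for Tspan4 only PBS 1 was lower, at 4.27. These layouts are given as a description over 6 arrays.

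Integrins, the adhesion receptors that many tetraspanins bind, were described from a list of 26 subunits, of which 24 were measured. Of these 2 fell, 0 rose and 22 did not pass, where 5.18% of all probe sets passed and 9.50% of those above the receptor level in at least 3 arrays, so the count lies near the background. The median difference was -0.29 log2 units, against 0.09 over all probe sets. Itgb4, of the hemidesmosomes that hold epithelium to its basement membrane, read 10.93, 11.64 and 10.40 in PBS, against 5.32, 4.26 and 4.22 in MBELN (limma, adjusted p = 0.00265). Itga3, the laminin-binding partner of Cd151, read 11.80, 10.49 and 12.02 in PBS, against 7.07, 5.97 and 7.07 in MBELN (adjusted p = 0.0106), but missed the threshold without PBS 1 (adjusted p = 0.0656), PBS 3 (0.0594) or MBELN 3 (0.0501). Itga6, which pairs with Itgb4, read 12.78, 11.05 and 13.52 in PBS, against 9.28, 6.76 and 8.98 in MBELN, without overlap but short of the threshold (adjusted p = 0.0775). Itgb1, the common beta subunit, read 13.21 to 13.56 in PBS, against 14.59, 7.59 and 14.14 in MBELN 1, 2 and 3, above PBS in MBELN 1 and 3 and far below in MBELN 2, as Cd151 was. Itgb6, Itgam and Itga8 had adjusted p of 0.116, 0.138 and 0.236.

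Of 19 measured other partners of tetraspanins, 6 fell, 0 rose and 13 did not pass, where 5.18% of all probe sets passed, 3.76% lower. Among probe sets above the receptor level in at least 3 arrays 9.50% passed, 6.91% lower. The median difference of these partners was -1.11, against 0.09 over all probe sets. Epcam, an epithelial adhesion protein that joins Cd9 and Tspan8 complexes with Cldn7, read 19.40, 18.97 and 19.41 in PBS, against 7.12, 2.47 and 7.54 in MBELN (limma, adjusted p = 0.00691). Cldn7, a claudin, was lower by at least 2114-fold (adjusted p = 0.000742). Both calls held with any 1 array left out. Ptgfrn, a direct partner of Cd9 and Cd81, read 11.37, 11.39 and 11.42 in PBS, against 7.97, 7.32 and 9.08 in MBELN (adjusted p = 0.0223), while Cd81 rose and Cd9 did not pass. It missed the threshold without PBS 1 (adjusted p = 0.113), PBS 2 (0.0503), PBS 3 (0.113) or MBELN 1 (0.0964). Hbegf, a growth factor whose membrane form binds Cd9, read 7.26 to 8.22 in PBS against 4.44 to 5.83 in MBELN, and Igsf3 6.12 to 7.04 against 4.41 to 4.88, and both fell (adjusted p = 0.0373 and 0.0435). Without each array in turn except MBELN 2, the adjusted p of Hbegf was 0.162, 0.076, 0.108, 0.121 and 0.0531 and that of Igsf3 was 0.102, 0.083, 0.158, 0.129 and 0.152, in the order PBS 1 to 3, MBELN 1 and MBELN 3, and with a trended robust variance model they were 0.0674 and 0.119. Igsf8, the other close partner of Cd9 and Cd81, read 5.36, 6.16 and 6.23 in PBS, against 4.36, 8.91 and 4.54 in MBELN 1, 2 and 3, high in MBELN 2. Sdcbp, the syntenin that binds Cd63, read 14.70 to 16.61 in PBS, against 12.35 to 14.46 in MBELN, without overlap (adjusted p = 0.307).

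The L6 proteins also cross the membrane several times but are not tetraspanins. Of 5 genes, 1 passed, where 5.18% of all probe sets did and 9.50% of those above the receptor level in at least 3 arrays. Tm4sf20 fell, from 13.88, 17.53 and 13.58 in PBS to 5.93, 3.10 and 4.31 in MBELN (limma, adjusted p = 0.0119), but missed the threshold without PBS 1 (adjusted p = 0.0546) or MBELN 3 (0.0643). PBS 2 was its highest array, as for Tspan1. Tm4sf1, known from endothelium, read 4.66, 7.24 and 5.07 in PBS, against 14.84, 5.12 and 14.06 in MBELN 1, 2 and 3 (adjusted p = 0.355). Tm4sf4 and Tm4sf5 read 11.25 and 10.49 in PBS 1, 10.19 and 10.85 in PBS 3, and 3.53 and 3.18 in PBS 2, and Tm4sf19 was below the receptor level throughout.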

How the data were processed

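Single-colour arrays were read for 6 samples, 3 titled PBS and 3 titled MBELN. Values as deposited by the authors, 1 for each probe set on each array, were taken as log2 from their range (highest 19.93), since no source states a scale. Per the labels' protocols, Trizol RNA (90 ng) was made into biotinylated cRNA, and the label also names an Ion AmpliSeq assay. The submitters' processing notes list Transcriptome Analysis Console 4.0. Neither the normalization nor the build is given in the sources used here.

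Of 28846 probe sets, 6640 controls stayed out of tests. Of the 22206 others, 19572 had 1 symbol, 0 several and 2634 none, and Entrez identifiers matched 19572 to the RefSeq table and changed 0 symbols. Two-sided moderated tests without covariates came from limma 3.58.1 (lmFit, eBayes) under R 4.3.3, adjusted by Benjamini-Hochberg across every transcript probe set. A gene below the receptor level in all arrays of 1 group is given as at least N-fold. The procedure was tested on simulated data.

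Members, lists and alternatives were chosen with earlier results of these data known. Values in every array are given for members past the threshold, for those with arrays over 4 log2 units apart and for Cd9, Cd63, Cd81, Cd82 and Cd151. Further members, beyond that rule, have them where their layout is described, and partner genes are named by the smallest p, up to 6 in each list. Partner genes described beside a member, such as Itgb1, Igsf8, Fzd4, Upk3b, Sdcbp and Tm4sf1, were named after their values had been seen. The same holds for the leukocyte markers named. The fits within a hybridisation control level were chosen after seeing the data. Plots used matplotlib 3.10.9.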

Additional observations from a re-analysis of the deposited data

How the results depend on the processing

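The 4 members that fell and the 1 that rose passed under quantile normalization, median centring, the filter on dim probe sets and array weights. Tspan8, Tspan15 and Cd82 passed in every alternative run. Members higher in MBELN numbered 0 with the trended robust variance model (Cd81, adjusted p = 0.0888), 5 with array weights and 6 without PBS 2 and MBELN 2 together. Over the arrays left out in turn they numbered 0 to 6. Members lower numbered 3 to 4 over single arrays left out, 6 without PBS 2 and MBELN 2 together and 6 after blocking on hybridisation control level. The share called over all probe sets, in either direction, was 3.90% with the trended robust variance model and 25.9% with array weights. It was 30.5% without PBS 2 and MBELN 2, 6.19% with the level as a block and 1.70% to 16.8% over single arrays left out. With array weights, without PBS 2 and MBELN 2 and without MBELN 2, larger counts of members thus came with larger shares over all probe sets. With the replicate number as a block, 456 probe sets, 3 members lower and 0 higher were called, and 2 other partners; Tspan1 and Cd81 had adjusted p of 0.0661 and 0.0927. Deviations of same-numbered arrays correlated at -0.031, -0.072 and -0.056, and each array correlated better with another number than with its own. No pairing by number showed in these values. All correlations lay between -0.091 and 0.079, too weak to decide whether the samples were paired.

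The count over all probe sets was 1150, and 5757 with array weights, 6769 without PBS 2 and MBELN 2, 7234 and 4174 within the lower and the higher level, and 377 (without PBS 1) to 3738 (without MBELN 2) over single arrays left out. The share called lower was 72.6%, 50.1% with array weights and 50.5% without PBS 2 and MBELN 2. Integrin calls numbered 9 with array weights, 11 without PBS 2 and MBELN 2, 8 and 9 within the higher and the lower level, and 1 to 6 over single arrays left out. Other partners numbered 3 with the trended robust variance model, 11 and 13 within the higher and the lower level, and 2 to 7 over single arrays.

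Signs were followed for the members whose values in every array are given by the rule above. Sign changed for Cd151, Tspan13, Tspan2 and Tspan5 with array weights (2.0, -1.31, -0.34 and -0.72), without PBS 2 and MBELN 2 (2.45, -1.55, -0.49 and -1.18), without MBELN 2 (2.17, -1.04, -0.41 and -0.93) and within the higher level (1.60, -0.036, -0.24 and -0.43). It also changed for Tspan13 without PBS 2 (-0.30), and for Upk1b with the level as a block (-0.022), without PBS 2 (-0.45), without MBELN 1 (-0.70), without MBELN 3 (-0.0047) and within the lower level (-2.71). Members outside that rule changed sign too. Among them, Cd53 went from -0.59 to 0.59 and Tspan12 from -0.25 to 0.68 without MBELN 2, and Tspan31 from 0.33 to -0.26 without MBELN 3. Over single arrays left out, Cd151 ranged from -2.20 to 2.17, Tspan13 from -1.04 to 1.0, Tspan2 from -0.41 to 2.35, Tspan5 from -0.93 to 2.87 and Upk1b from -0.70 to 1.34. The cause was not tested, beyond MBELN 2 being left out or weighted down where it stood apart. Averaging probe sets of a gene was not run because each member has 1. Members below the receptor level have no order.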
